A study of Mus musculus with 6 samples.

Results

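The genes described here are Cdk2 and 9 other genes of the G1 phase and its passage into DNA replication, taken by symbol from a table of read counts of mouse spermatogonial stem cells. The 9 are the cyclin genes Ccne1, Ccne2, Ccna2, Ccnd1 and Ccnd3, the kinase genes Cdk4 and Cdk6, the phosphatase gene Cdc25a and the inhibitor gene Cdkn1b. All 10 were found among the 51912 genes of the table, and all 10 passed the filter on low counts that left 15240 genes. The question put to the data was which of the partners follow Cdk2. Smart-Seq2, a full-length cDNA method for small amounts of RNA, was used on THY1-positive, c-KIT-negative cells sorted at postnatal day 4 from C57BL/6J mouse testis. There were 3 wild type libraries and 3 of the genotype Bud31-vKO, called mutant below, in which Bud31, a gene of the spliceosome, was knocked out with the Cre-loxP system. Values of single libraries are given in the order 1, 2, 3. The labels name neither the Cre driver nor the deleted exons, and they do not say how many cells or animals went into a library, so p-values reflect only how these libraries vary, and that spread may be technical. The table heads its columns with C and T, read here as control, hence wild type, and as the targeted genotype, by convention.

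Passage through G1 is driven by kinases that work only when bound to a cyclin. D-type cyclins with CDK4 or CDK6 act first and begin to phosphorylate the retinoblastoma protein, which frees E2F transcription factors to switch on genes of the next step, cyclin E among them. Cyclin E with CDK2 then commits the cell to replication, and cyclin A takes over CDK2 during S phase. CDC25A removes inhibitory phosphates from CDK2, and p27, the product of Cdkn1b, binds the cyclin-CDK complex and holds it inactive. In mouse germ cells CDK2 is also known for its place at the telomeres of meiotic chromosomes, and mice without Cdk2 live but are sterile.

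The libraries held 13240704 to 18744466 reads and detected 12464 to 22300 genes. Wild type library 3 and mutant library 2 stood apart with the fewest genes detected, 13762 and 12464. Levels are given as CPM, read counts scaled to a common library total with TMM factors. Bud31, the targeted gene, measured 138, 96.8 and 158 CPM in wild type against 47.2, 67.6 and 80.4 CPM in the mutants, or 131 ± 31.1 CPM in wild type and 65.1 ± 16.7 CPM in the mutants (SD, n = 3 each), with no overlap. The 14 germ cell markers summed to 3581 to 4542 CPM in wild type against 2199 to 2928 CPM in the mutants, and all 14 had a log2 fold change below 0. The 11 markers of peritubular myoid and stromal cells summed to more than the germ cell markers in each library, 10686 to 21737 CPM in wild type against 8358 to 14866 CPM in the mutants, although the cells were sorted as germ line stem cells. Col1a1, Col1a2, Col3a1 and Dcn made up most of this sum, at means of 3931, 2624, 4036 and 3269 CPM in wild type. Sums over different genes do not measure the numbers of cells. The sum over the 12 markers of T and NK cells did not overlap between the genotypes, at 22.0, 162 and 105 CPM in wild type against 245, 761 and 197 CPM in the mutants. Of the 12, 10 had a log2 fold change above 0, but singly only Gzma and Il2rb did not overlap. In mutant library 2, Ptprc at 328 CPM and Il2rb at 224 CPM added the most to the sum. Sertoli cell markers, 12 genes, were highest in mutant library 1, at 1735 CPM, against 137 to 455 CPM in the other libraries. No gene of these 4 lists was at 0 in all libraries. The sums over Leydig cell, endothelial, macrophage and erythroid markers overlapped between the genotypes. Of the sort markers, Thy1 measured 13.3 ± 2.85 CPM in wild type against 16.4 ± 12.1 CPM in the mutants, and Kit, which the sort should leave out, 30.7 ± 31.4 against 12.8 ± 11.8 CPM (SD, n = 3 each). The part of these other cells in the results on Cdk2 and its partners was not tested.

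Cdk2 was 4.79-fold lower in the mutant libraries than in wild type, without overlap. Of its 9 partners, 8 overlapped between the genotypes. That is near the share over all tested genes, of which 11.2% did not overlap in either direction. Cdk2 (ENSMUSG00000025358, chr10:128697939-128705031 of GRCm38, minus strand) measured 171, 208 and 276 CPM in wild type. In the mutants it measured 36.8, 41.1 and 58.9 CPM. The highest mutant library thus lay far below the lowest wild type library, with 504 reads or more for the gene in each library. The spread within a genotype was alike, with a coefficient of variation of 24.5% in wild type and 25.6% in the mutants. By edgeR's quasi-likelihood test the log2 fold change was -2.26 (95% confidence interval -3.13 to -1.38), with an unadjusted p of 0.000368 (1.82% of all genes were lower with such a p under 0.05) and an adjusted p of 0.9997. By that test 0 of 15240 genes passed (0%), and 443 genes had an unadjusted p under 0.05 (2.91%). DESeq2 called Cdk2 (adjusted p = 0.000276) and 0.314% of the genes it tested, and limma-voom called 0 genes. When each library in turn was left out, DESeq2 still called Cdk2, with adjusted p between 0.000435 and 0.0126. Of its exonic bases, 34 (0.547%) overlap Pmel on the opposite strand, and nothing used here states whether the counting used strand. Pmel itself, a melanosome gene, was at 19.7, 16.8 and 14.2 CPM in wild type against 0.365, 16.3 and 0.222 CPM in the mutants. The part of the overlap with Pmel in the Cdk2 counts was not tested.

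Cdk2 was also lower relative to the sum of the germ cell markers, to which Dazl adds the most in each library. The summed germ cell markers were 1.65-fold lower in the mutants, and per 1000 CPM of these markers Cdk2 measured 37.6, 45.8 and 77.1 CPM in wild type against 16.8, 16.04 and 20.1 CPM in the mutants. The ratio was 3.03-fold lower in the mutants, with no overlap (exact permutation test, 2-sided, p = 0.1, the smallest that 3 libraries against 3 can give), and on this scale 1.57% of all genes were lower without overlap. Most of the 14 germ cell markers fell far less than Cdk2, with a median log2 fold change of -0.58 against -2.26 for Cdk2. Only 3 markers came near the fall of Cdk2, and the next largest fall was that of Dnd1, 1.88-fold. Elavl2, an RNA-binding protein gene, was 4.74-fold lower, at 57.8, 34.7 and 156 CPM in wild type against 31.2, 0 and 21.3 CPM in the mutants. Rnf17, a gene of the piRNA pathway, was 3.98-fold lower, with 0 reads in mutant library 2. Mael, of the same pathway, was 3.16-fold lower and was called by DESeq2 (adjusted p = 0.0453). By edgeR the unadjusted p was 0.195 for Elavl2 and 0.221 for Rnf17, which both had 0 reads in mutant library 2. These 3 markers were chosen after their values were seen. In such bulk samples fewer cells of a type and less RNA per cell cannot be told apart.

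**Figure D1:**
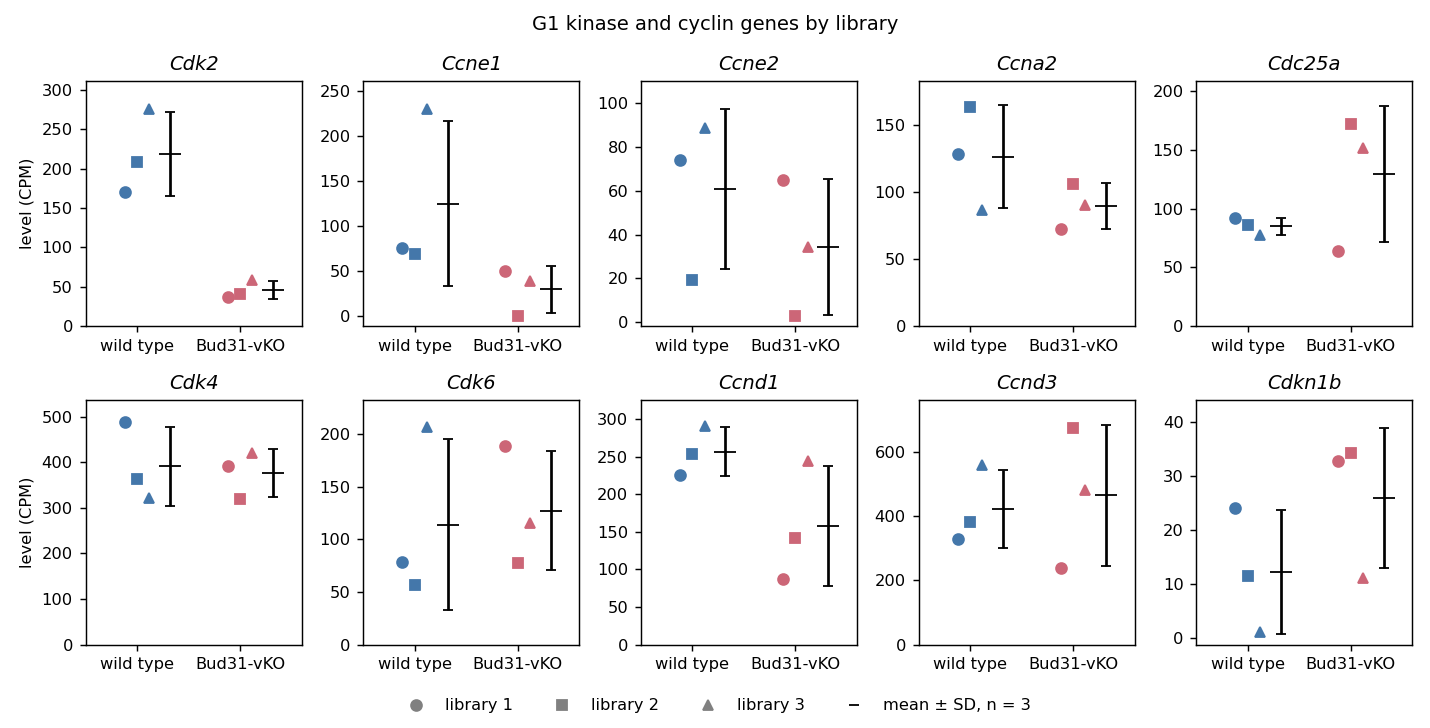
Level of each gene in CPM (vertical axes, each panel with its own scale) in 3 wild type libraries (blue) and 3 Bud31-vKO libraries (red), with symbols for the library numbers and a bar for the mean and SD. Cdk2 lies at 171 to 276 CPM in wild type and at 36.8 to 58.9 CPM in the mutants, while Cdk4 overlaps, at 321 to 488 and 319 to 421 CPM.

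The E-type cyclins, which bind and activate CDK2, were uneven between libraries of the same genotype. Ccne1 (ENSMUSG00000002068, chr7:38097984-38107534, minus strand) measured 75.1, 69.1 and 231 CPM in wild type against 49.3, 0 and 38.8 CPM in the mutants. The groups did not overlap, but wild type library 3 was far above the other wild type libraries and mutant library 2 had 0 reads, which allows a level of up to 0.214 CPM by counting error alone. Groups that did not overlap, lower in the mutants, made up 6.39% of all genes tested, and 2 of the 10 members were among them, Cdk2 and Ccne1. In the other direction it was 4.76% of all genes and 0 members. The log2 fold change of Ccne1 was -2.09 with an interval from -5.66 to 1.49, and its unadjusted p by edgeR was 0.214. It was -1.497 without mutant library 2, -1.28 without wild type library 3, and -0.70 in the 4 libraries richest in detected genes. Ccne2 (ENSMUSG00000028212, chr4:11191351-11204779, plus strand) measured 73.9, 19.3 and 88.8 CPM in wild type against 65.1, 2.93 and 34.5 CPM in the mutants. Its groups overlapped, with a log2 fold change of -0.83 (-3.24 to 1.59), and 17.4% of its exonic bases overlap Ints8 on the opposite strand. In the 4 libraries richest in detected genes that value was 0.11, and it was -1.69 without mutant library 1 and -0.28 without mutant library 2. Both E-type cyclin genes were lowest of all in mutant library 2.

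Ccna2 (ENSMUSG00000027715, chr3:36564865-36572150, minus strand), the cyclin that joins CDK2 in S phase, measured 128, 163 and 86.7 CPM in wild type. In the mutants it measured 71.9, 106 and 90.4 CPM. Only wild type library 3 fell within the mutant range, and the log2 fold change was -0.50 (-1.39 to 0.40). Relative to the germ cell markers the direction turned, from 29.5 ± 5.94 to 35.0 ± 5.58 CPM per 1000 CPM (SD, n = 3 each). Cdc25a (ENSMUSG00000032477, chr9:109875579-109893895, plus strand) encodes the phosphatase that acts on CDK2 and had a log2 fold change above 0. It measured 91.9, 86.0 and 77.6 CPM in wild type, the smallest spread of the 10 genes at a coefficient of variation of 8.45%, and 63.9, 172 and 152 CPM in the mutants. Mutant library 1 was below and the other mutant libraries were above all wild type libraries, and the log2 fold change was 0.60 (-0.42 to 1.63). Per 1000 CPM of germ cell markers Cdc25a did not overlap between genotypes, at 18.9 to 21.7 CPM in wild type against 29.1 to 67.3 CPM in the mutants. On that scale, whose divisor is itself lower in the mutants, 17.7% of all genes were higher without overlap.

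The promoters of Cdk2, Ccne1 and Cdc25a are shown because these genes of the same step had log2 fold changes of different sign. Only Cdk2 among them had a confidence interval that left out 0. A further reason is that E2F binding words are among the letters found in the promoters of Cdk2 and Cdc25a. Each run covers 250 bases before and 50 bases after the gene's start, 5′ to 3′ on the gene's strand, from RefSeq on GRCm38.p6, where 7 of the 10 members matched. Capitals mark the words TTTCCCGC, TTTCGCGC, TTTGCCGC and TTTGGCGC or their reverse complements, forms of the E2F binding word, searched on both strands.
Cdk2, chr10:128705002-128705301, minus strand: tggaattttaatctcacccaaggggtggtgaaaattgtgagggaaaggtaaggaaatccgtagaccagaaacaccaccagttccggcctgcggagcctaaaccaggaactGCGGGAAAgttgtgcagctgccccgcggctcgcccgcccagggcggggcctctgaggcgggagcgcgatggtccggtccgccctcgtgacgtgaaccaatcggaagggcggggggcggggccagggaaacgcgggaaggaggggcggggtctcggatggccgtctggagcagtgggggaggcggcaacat
Ccne1, chr7:38107441-38107740, minus strand: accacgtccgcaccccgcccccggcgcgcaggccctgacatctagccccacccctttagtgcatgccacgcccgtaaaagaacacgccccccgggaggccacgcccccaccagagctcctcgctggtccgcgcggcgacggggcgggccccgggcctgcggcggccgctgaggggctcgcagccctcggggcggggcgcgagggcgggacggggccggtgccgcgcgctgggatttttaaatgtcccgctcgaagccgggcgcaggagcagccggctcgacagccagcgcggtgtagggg
Cdc25a, chr9:109875329-109875628, plus strand: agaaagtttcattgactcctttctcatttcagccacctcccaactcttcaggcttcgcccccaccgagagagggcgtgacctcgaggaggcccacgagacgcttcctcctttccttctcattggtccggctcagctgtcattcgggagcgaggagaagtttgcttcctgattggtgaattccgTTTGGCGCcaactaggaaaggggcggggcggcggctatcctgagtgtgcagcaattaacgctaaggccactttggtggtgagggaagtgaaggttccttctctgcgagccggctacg
Of 32851 RefSeq promoters of the same length, 2.26% hold such a word. Of the 8 promoters of the 7 matched members, 2 do. The Cdk2 promoter holds 1, on the opposite strand, and the Cdc25a promoter holds 1, on the gene's strand, while the printed Ccne1 window holds 0 of these words. Cdk2 and Cdc25a, which each hold one of the words, had log2 fold changes of different sign, but the interval of Cdc25a, -0.42 to 1.63, includes 0. The part of E2F factors in these values was not tested. The word GGGCGG, bound by SP1, occurs 6 times in the Cdk2 window, 4 times in that of Ccne1 and 2 times in that of Cdc25a on either strand (those of Cdc25a share 1 base), and 35.7% of the promoters hold it. CCAAT, the word bound by NF-Y, occurs 1 time in the Cdk2 window and 2 times in that of Cdc25a, and is held by 37.4% of the promoters. These matches describe letters and not occupied sites.

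The genes of the kinases that act before CDK2 overlapped between the genotypes. Cdk4 (ENSMUSG00000006728, chr10:127063534-127067920, plus strand) measured 488, 364 and 321 CPM in wild type against 392, 319 and 421 CPM in the mutants. The ranges overlapped nearly throughout, and the log2 fold change was -0.05 with an interval from -0.72 to 0.61, which excludes a fall of the size of Cdk2's estimate. So do the intervals of Cdc25a, Ccnd3, Cdk6, Ccna2, Ccnd1 and Cdkn1b, but not those of Ccne1 and Ccne2, all without adjustment. Those of Ccna2, Ccnd1 and Cdkn1b still overlap the interval of Cdk2. The value was 0.14 without wild type library 1, 0.07 without mutant library 2, and 0.69 when scaled to the germ cell markers. On that last scale Cdk4, like Cdc25a, was higher without overlap, at 80.2 to 107 CPM per 1000 CPM in wild type against 124 to 178 in the mutants. Its exons overlap those of Tspan31 on the opposite strand over 19.7% of their bases. Cdk6 (ENSMUSG00000040274, chr5:3341485-3531008, plus strand) measured 78.4, 56.7 and 207 CPM in wild type against 189, 77.0 and 116 CPM in the mutants. High and low libraries occurred in both genotypes, and the log2 fold change of 0.16 had an interval from -1.18 to 1.499. Without wild type library 3 it was 0.93, without wild type library 1 it was -0.05, without wild type library 2 it was -0.17, and it was -0.22 without mutant library 1, the library richest in Sertoli cell markers. In the 4 libraries richest in detected genes it was 1.19. The part of the other cells of mutant library 1 in the value was not tested. Cdk2 made up 15.0%, 22.4% and 28.1% of the summed Cdk2, Cdk4 and Cdk6 level per kilobase of exon in wild type, and 4.23%, 6.00% and 6.43% in the mutants. That share needs no scaling between libraries, and it did not overlap (exact permutation test, 2-sided, p = 0.1).

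The D-type cyclin genes had log2 fold changes of opposite sign, neither past a test. Ccnd1 (ENSMUSG00000070348, chr7:144929931-144939925, minus strand), the partner of CDK4 and CDK6 that growth factors induce, measured 226, 253 and 292 CPM in wild type. In the mutants it measured 87.1, 142 and 245 CPM, so that 2 libraries lay below all wild type libraries and 1 lay among them. Its log2 fold change was -0.70 (-1.66 to 0.25). It ranged from -1.17 without mutant library 3 to -0.39 without mutant library 1, and 23.4% of its exonic bases overlap LTO1 on the opposite strand. Per 1000 CPM of germ cell markers Ccnd1 measured 62.3 ± 16.8 CPM in wild type against 59.5 ± 22.3 CPM in the mutants (SD, n = 3 each), a difference far smaller than the spread. Ccnd3 (ENSMUSG00000034165, chr17:47505051-47599691, plus strand) measured 328, 383 and 560 CPM in wild type against 237, 676 and 482 CPM in the mutants. The mutant range enclosed the wild type range, and the log2 fold change of 0.13 (-0.85 to 1.11) became -0.23 without mutant library 2 and -0.02 without wild type library 1. Mutant library 2, where Ccnd3 and Cdc25a were highest, also had the highest sum of T and NK cell markers, 761 CPM, whose part in these values was not tested. Ccnd2, the third D-type cyclin gene and no member, measured 519 to 665 CPM in wild type against 336 to 713 CPM in the mutants.

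Cdkn1b (ENSMUSG00000003031, chr6:134920401-134925513, plus strand), which encodes the CDK2 inhibitor p27, had the lowest level per kilobase in both genotypes. It measured 24.1, 11.5 and 1.05 CPM in wild type against 32.7, 34.3 and 11.02 CPM in the mutants. Its values in mutant libraries 1 and 2 were above all wild type values and library 3 was within the wild type range. The log2 fold change was 1.09 (-1.75 to 3.93), and it was 0.57 without wild type library 3, which held 18 reads of the gene, and 2.05 without wild type library 1. Over the 10 members 6 log2 fold changes were below 0 and 4 above, with a median of -0.27, while 48.9% of all tested genes were below 0, with a median of 0.02.

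**Figure D2:**
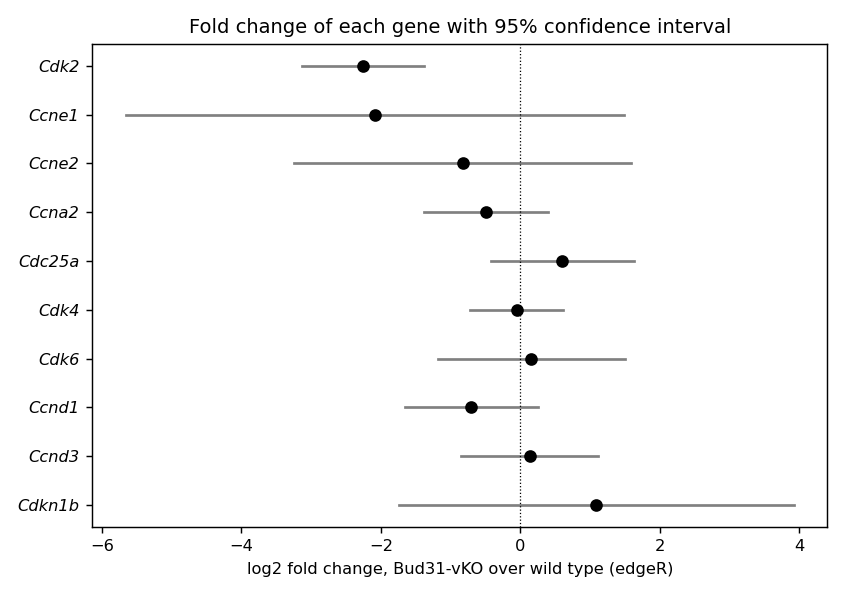
Log2 fold change of Bud31-vKO over wild type from edgeR for each gene (points) with its 95% confidence interval (lines). Of the 10 intervals only that of Cdk2, -3.13 to -1.38, leaves out 0, without any adjustment for the number of genes.

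Levels can be compared between genes only per length, here as CPM per kilobase of all annotated exons of the gene. On that scale Cdk2 held rank 5 of 10 in wild type, at 35.1 ± 8.59, and rank 9 in the mutants, at 7.33 ± 1.88 (SD, n = 3 each). Cdk4 was the highest in both genotypes, at 120 ± 26.8 in wild type and 116 ± 16.2 in the mutants, above the next gene in each library. In wild type it was followed by Ccnd1 at 54.6 ± 6.99, Ccnd3 at 48.3 ± 13.8, Ccne1 at 46.9 ± 34.4, Cdk2, Ccna2 at 30.9 ± 9.36, Ccne2 at 17.4 ± 10.5, Cdc25a at 10.6 ± 0.897, Cdk6 at 8.15 ± 5.80 and Cdkn1b at 2.68 ± 2.53. In the mutants the order after Cdk4 was Ccnd3 at 53.0 ± 25.1, Ccnd1 at 33.5 ± 17.0, Ccna2 at 21.9 ± 4.17, Cdc25a at 16.1 ± 7.19, Ccne1 at 11.04 ± 9.76, Ccne2 at 9.78 ± 8.90, Cdk6 at 9.10 ± 4.06, Cdk2 and Cdkn1b at 5.71 ± 2.86. In both genotypes all neighbours below Cdk4 in this order overlapped in their libraries. The E-type cyclins held 36.1% ± 11.4 of the level of cyclins E1, E2, D1 and D3 per kilobase in wild type and 21.4% ± 22.2 in the mutants (SD, n = 3 each), which overlapped (exact permutation test, 2-sided, p = 0.4).

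Whether a partner follows Cdk2 was first asked within each library, as the log2 ratio of Cdk2 reads to the partner's reads with 0.5 added to both. For 7 of the 9 partners this ratio was lower in all mutant libraries than in any wild type library. The same was so for 50.7% of all 15239 other genes tested, against which the 7 are to be read. A ratio higher in all mutants was found for 0.584% of these genes and for 0 partners. Each of these 7 had p = 0.1 by a 2-sided exact permutation test, the smallest that the design allows, and 0.129 when adjusted over the 9 ratios. The log2 ratio to Ccnd3 was -0.94, -0.88 and -1.02 in wild type against -2.69, -4.04 and -3.03 in the mutants. Cdk2 and Ccnd3 reads thus kept nearly the same proportion in the wild type libraries, although both levels differed between these libraries, and the proportion was less even in the mutants. The log2 ratio to Cdk4 was -1.52, -0.81 and -0.22 in wild type against -3.41, -2.95 and -2.84 in the mutants. The mean difference between genotypes was -2.22 for Cdk4, -2.55 for Cdk6, -2.74 for Cdc25a, -2.30 for Ccnd3, -1.79 for Ccna2, -1.44 for Ccnd1 and -4.05 for Cdkn1b. The value for Cdkn1b was -2.55 without wild type library 3. For Ccnd1 the ratio was -0.41, -0.28 and -0.08 in wild type and -1.24, -1.78 and -2.06 in the mutants, the smallest difference of the 7.

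Only the E-type cyclins had ratios that overlapped between the genotypes. The log2 ratio of Cdk2 to Ccne1 was 1.18, 1.59 and 0.26 in wild type against -0.42, 10.2 and 0.60 in the mutants, where the middle value comes from the library with 0 Ccne1 reads. Its mean difference of 2.44 was set by that library, and without it the difference was -0.92 (exact permutation test with all 6 libraries, 2-sided, p = 0.9). The ratio to Ccne2 was 1.21, 3.43 and 1.64 in wild type and -0.82, 3.80 and 0.77 in the mutants, with a difference of -0.84 that was -2.12 without mutant library 2 and 0.19 without mutant library 1. An overlap of this width does not show that the E-type cyclins follow Cdk2.

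**Figure D3:**
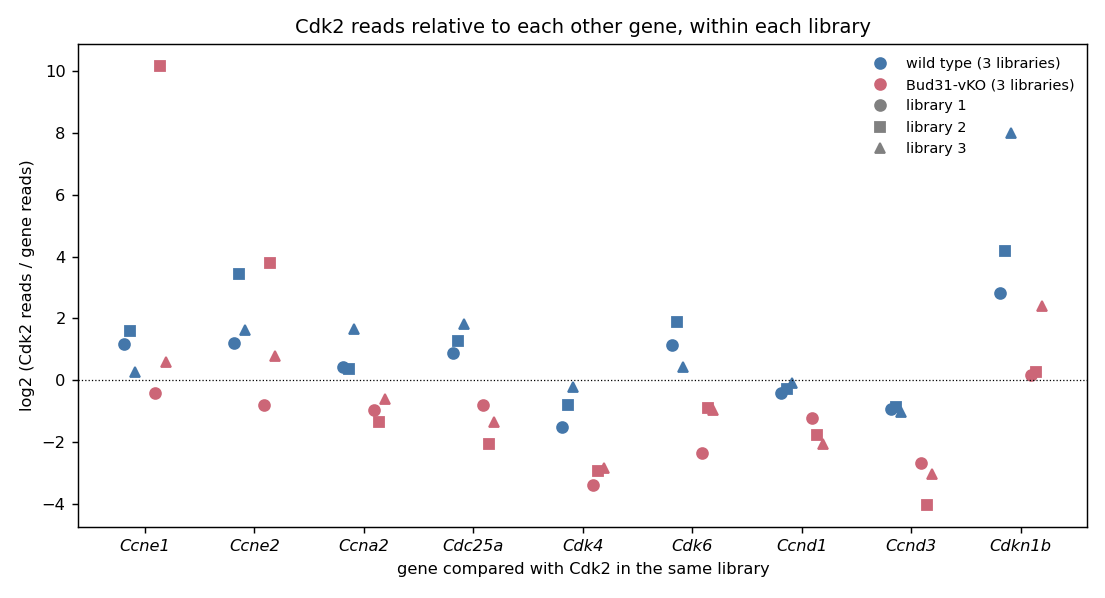
Log2 ratio of Cdk2 reads to the reads of each partner (vertical axis, 0 means equal reads) in the same library, for 3 wild type (blue) and 3 mutant libraries (red). The genotypes separate for 7 partners and overlap for Ccne1 and Ccne2, where mutant library 2 lies at 10.2 and 3.80.

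Likeness was then measured as a distance, the mean over the 6 libraries of the absolute difference in log2 CPM between 2 genes after each was centred on its own mean. A gene with the same profile as Cdk2 has a distance of 0, and the median over the other tested genes was 1.47. Ccnd1 was the nearest member at 0.72, and 3.48% of the other tested genes were nearer than it. Ccna2 followed at 0.90 (10.4% nearer), then Cdk4 at 1.11, Ccnd3 at 1.15, Cdk6 at 1.27, Ccne2 at 1.28 and Cdc25a at 1.37. Cdkn1b at 2.05 and Ccne1 at 2.12 were the farthest, beyond the median gene. The distance of Ccne1 rested on mutant library 2, and without that library it was 0.59, below the 0.67 of Ccnd1. Genes with little spread between libraries come out near on this scale whatever their course, so a short distance is a description of these 6 libraries.

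Centred on the genotype means instead, the same distance uses only the spread among libraries of 1 genotype. It was 0.21 for Ccnd1, 0.29 for Ccnd3, 0.34 for Cdk4, 0.38 for Cdc25a, 0.41 for Ccna2 and 0.56 for Cdk6, against a median of 0.93 over the other tested genes. Ccne2 at 1.28, Cdkn1b at 1.46 and Ccne1 at 2.07 lay beyond that median. Ccnd1 had the same order of libraries as Cdk2 within both genotypes, with library 3 the highest and library 1 the lowest in each. For Ccnd1, 2.14% of the other tested genes were nearer to Cdk2 within genotypes. Here too, genes with little spread come out near whatever their course, and the other tested genes include ones with few reads.

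**Figure D4:**
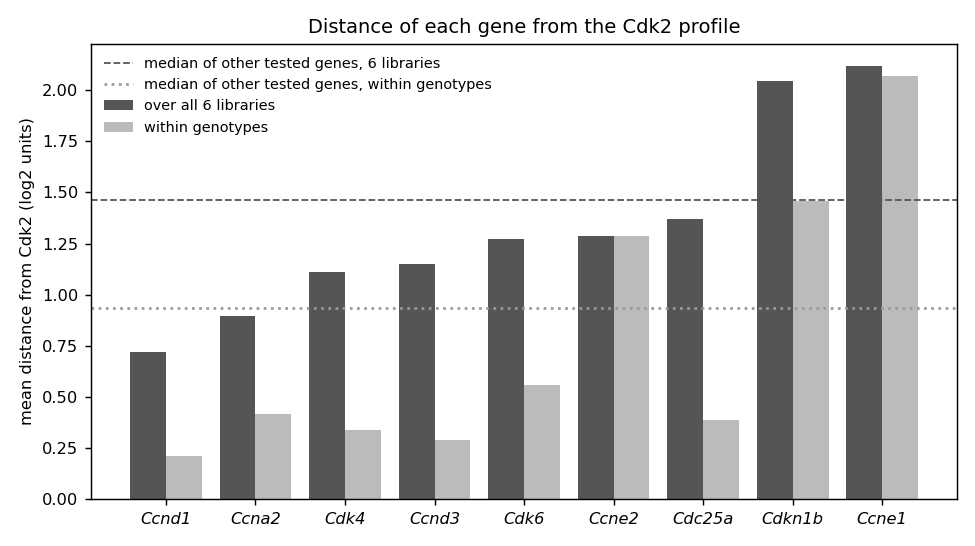
Mean distance in log2 units of each partner from the Cdk2 profile over all 6 libraries (dark bars) and within genotypes (light bars), with the medians of the other tested genes as dashed and dotted lines. Ccnd1 is the shortest in both forms, at 0.72 and 0.21, and Ccne1 the longest, at 2.12 and 2.07.

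Among 8323 protein-coding genes of ordinary symbol with a mean of at least 4 on the log2 CPM scale, the 5 nearest to Cdk2 were Rbm15, Cdca7, Tinf2, Bckdhb and Hmgcs1, at distances of 0.20, 0.27, 0.28, 0.28 and 0.30. Rbm15, which encodes an RNA-binding protein of the m6A methylation machinery, measured 21.7, 38.2 and 61.4 CPM in wild type against 7.68, 7.21 and 11.8 CPM in the mutants. Tinf2, which encodes the shelterin protein TIN2, measured 131, 134 and 202 CPM in wild type against 46.7, 37.6 and 58.7 CPM in the mutants. Both had wild type library 3 and mutant library 3 as the highest of their genotype, as Cdk2 did. Bckdhb, a subunit of the enzyme that breaks down branched-chain amino acids, measured 81.9 ± 10.4 CPM in wild type against 24.4 ± 3.64 CPM in the mutants (SD, n = 3 each). None of the 5 passed by edgeR, with adjusted p of 0.9997 each, while DESeq2 called Hmgcs1, Cdca7 and Tinf2 with adjusted p of 6.37e-06, 0.00953 and 0.0381. These genes were picked for their likeness to Cdk2, so their differences are no separate evidence.

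**Figure D5:**
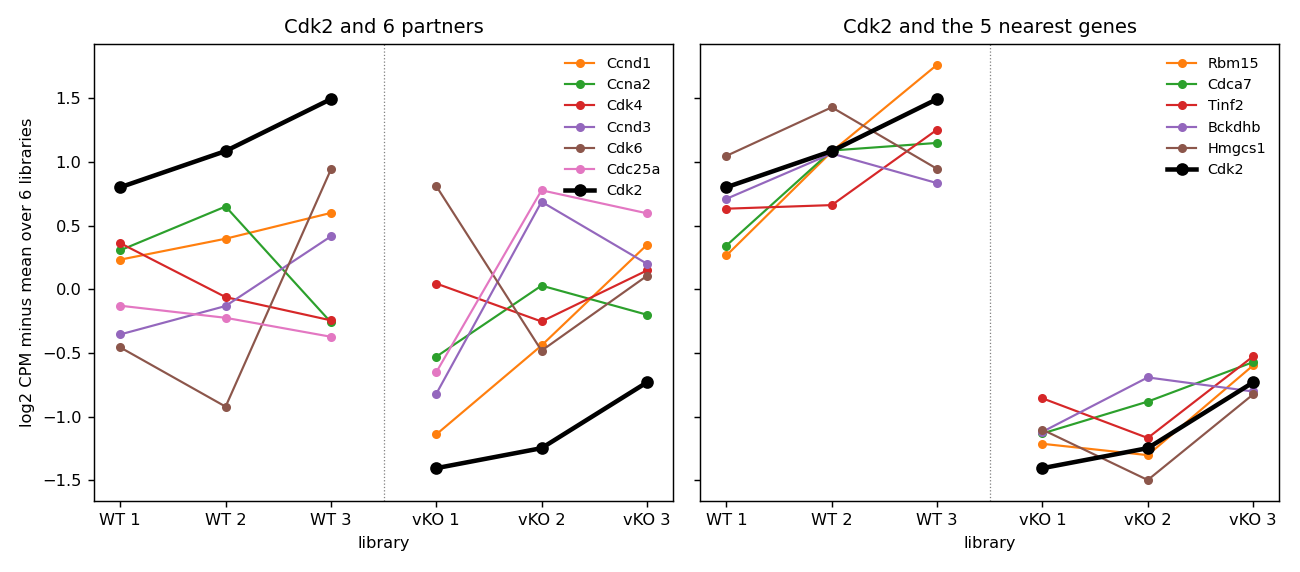
Log2 CPM of each gene minus its mean over the 6 libraries (vertical axis) in wild type (WT) and mutant libraries 1 to 3 (vKO), with Cdk2 in black beside 6 partners (left) and beside the 5 nearest genes (right). On the left Cdk2 is the lowest line in each mutant library, and on the right the 5 nearest genes, at distances of 0.20 to 0.30, lie above 0 in wild type and below 0 in the mutants, as Cdk2 does.

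Other genes of the pathway gave no call by edgeR in any list, as edgeR called 0 of all 15240 genes. Genes without overlap in these lists are to be read against the 6.39% of all tested genes that were lower without overlap. Of 16 other CDK family genes tested, 10 were below 0 and 6 above, with a median log2 fold change of -0.20, and 1 of them did not overlap. That gene was Cdk19, a kinase of the Mediator complex, at 20.8, 10.8 and 54.6 CPM in wild type against 7.97, 0.285 and 1.11 CPM in the mutants, with a log2 fold change of -3.20 (standard error 1.51) and an unadjusted p of 0.0684 by edgeR. Cdk13, a kinase of RNA polymerase II, had -0.88. Cdk1, the mitotic kinase, measured 40.5, 48.7 and 28.5 CPM in wild type against 18.1, 67.0 and 35.8 CPM in the mutants. Of 7 other cyclin genes tested, 5 were below 0, with a median of -0.29, and Ccnb3, a cyclin of meiosis, did not overlap, at 8.18 to 30.6 CPM in wild type against 0 to 5.55 CPM in the mutants. Ccnb3 had 0, 0 and 75 reads in the mutants and passed the filter on low counts only with its wild type libraries. Ccnf, the F-box protein cyclin F, had -0.89 with overlap.

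Of the 6 CDK inhibitor genes beside Cdkn1b, 3 were below 0 and 3 above. Cdkn2a, which encodes p16 and ARF, measured 0.875, 2.43 and 1.63 CPM in wild type against 0 in each mutant, where the floor of 3 reads is 0.214 to 0.222 CPM. It was the 1 gene of the list with an unadjusted p under 0.05 by edgeR. With 12, 44 and 28 reads in wild type, Cdkn2a passed the filter on low counts through the wild type libraries alone. Its p and its lack of overlap are thus no separate support for a difference. Cdkn2b, which encodes p15, was the other gene of the list without overlap, at 5.54 to 9.72 CPM in wild type against 0.370 to 4.00 CPM. Over all tested genes 6.39% were lower without overlap, and 2.91% had an unadjusted p under 0.05 by edgeR. Cdkn1a, which encodes p21, measured 19.2, 6.52 and 38.2 CPM in wild type against 49.6, 19.1 and 84.4 CPM in the mutants, which overlapped at a log2 fold change of 1.26. Of the 5 genes of the CDK-activating kinase and the CDC25 family beside Cdc25a, 3 were above 0, with a median of 0.35. Mnat1, the assembly factor of the CDK-activating kinase, had 0.73 and the phosphatase Cdc25b also 0.73. Among 9 genes of the kinases that inhibit CDK2, of the CKS proteins and of the ubiquitin ligases for cyclin E and p27, 6 were above 0, with a median of 0.05. Wee1, which phosphorylates CDK2 on its inhibitory tyrosine, measured 96.7 ± 8.89 CPM in wild type against 122 ± 78.6 CPM in the mutants, and Cul1, the scaffold of the SCF ligase, 245 ± 45.5 and 202 ± 79.1 CPM (SD, n = 3 each). Of 10 genes of CDK2 binding proteins and substrates, 6 were below 0, with a median of -0.22. Cdc6, a replication licensing factor, had -0.84 and Cinp, which binds CDK2, had -0.48, both with overlap. Spdya, whose product activates CDK2 at meiotic telomeres in mice, measured 2.77, 2.04 and 4.31 CPM in wild type against 1.83, 0 and 0 CPM in the mutants, too few reads to read a fold from, and was chosen after its values were seen, as were Cdkn2b, Ccnd2 and Cdk1. By DESeq2, Cdk2 was the 1 gene called among the members and these lists, against 0.314% of all genes it tested.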

How the data were processed

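The authors deposited unscaled whole read counts for each Ensembl gene, and their totals differ between libraries. Smart-Seq2 was used per the labels' protocols, and bcl2fastq and the build mm10 are named per the submitters' processing notes. For the aligner, counting tool, annotation release and use of strand nothing is stated in the labels. The columns carry no sample titles and were assigned to genotypes by their letters. Symbols (99.63% of identifiers), coordinates, exon lengths and overlaps came from GENCODE M21 on GRCm38.

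Low counts were removed by filterByExpr (edgeR 4.0.16, at least 10 reads in enough libraries and 15 in total), and the rest was scaled by TMM and tested over all 15240 genes with the quasi-likelihood F test and Benjamini-Hochberg adjustment at 0.05, without covariates. Log2 CPM used a prior count of 2. Alternatives were other scalings and filters, DESeq2 1.42.0, limma-voom (limma 3.58.1), a block, removal of mitochondrial, haemoglobin and rRNA genes, and libraries left out. Leaving out libraries in DESeq2 and scaling to germ cell markers were added after the first results. The members and lists were chosen with earlier results of these data known. The genes named by rule are the members, Bud31 and Pmel, the 2 of each list with the smallest p, and the 5 nearest to Cdk2. Further genes, such as single cell type markers, Cdk1, Ccnd2, Cdkn2b and Spdya, were named outside this rule. Steps were tested on simulated data. A floor of 3 reads equals 0.166 to 0.222 CPM. Intervals cover only the spread between these libraries. Analyses ran in R 4.3.3, and figures in Python 3.11.15 with matplotlib 3.10.9.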

Additional observations from a re-analysis of the deposited data

How the results depend on the processing

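Cdk2 was lower in Bud31-vKO under each alternative run, with a log2 fold change of -2.49 to -2.03 when 1 library was left out and of -1.97 in the 4 libraries richest in detected genes. Relative to the summed germ cell markers it was -1.60. Its adjusted p by edgeR was 0.113 with no filter on low counts and 0.753 or more in the other edgeR fits, and DESeq2 called it (-2.23, adjusted p = 0.000276). Over all genes edgeR called 5 higher and 2 lower with no filter, DESeq2 called 17 higher and 30 lower, and limma-voom and the other edgeR fits, leaving out 1 library included, called 0 in either direction. DESeq2 called 29 to 150 genes when 1 library was left out. With all 6 libraries edgeR had 443 genes at an unadjusted p under 0.05 and limma-voom 755. Of 160 values of the members under these alternatives other than the germ cell scaling, 151 kept direction and call, 1 became a call (Cdk2 by DESeq2) and 8 changed sign. With 1 library left out, these were Ccnd3 at -0.02 and -0.23, Cdk4 at 0.14 and 0.07, and Cdk6 at -0.05, -0.17 and -0.22. Their values with all 6 libraries were 0.13, -0.05 and 0.16. Ccne2, at -0.83 with all 6 libraries, was 0.11 in the 4 libraries. The full ranges with 1 library left out were -0.23 to 0.48 for Ccnd3, -0.16 to 0.14 for Cdk4 and -0.22 to 0.93 for Cdk6. Scaled to germ cell markers, Ccna2 turned to 0.25 and Cdk4 to 0.69. The Ccne1 value was -4.75 by limma-voom and -3.24 with the block. In the 4 libraries the difference in log2 ratio to Cdk2 was -1.17 for Ccna2, -2.16 for Cdc25a, -2.21 for Cdkn1b, -1.30 for Ccne1 and -2.34 for Ccne2, and the log2 fold change was 1.19 for Cdk6 and 0.31 for Cdkn1b. The cause of these shifts was not tested. A fit with the number in the column name as a replicate block gave -2.26 for Cdk2 (adjusted p = 1) and 0 calls. Deviations of libraries with the same number correlated at 0.191, 0.0407 and -0.0756 across genes, and those with different numbers at -0.208 to 0.110. With 3 libraries per genotype, centred on their own mean, these values cannot tell whether the numbers pair the libraries.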
